A study of Arabidopsis thaliana with 3 samples.

Results

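The regions described here are 630 short stretches of differential DNA methylation that lie in ATREP Helitrons on the chromosome arms of Arabidopsis thaliana. They were taken from 4481 distinct regions, by coordinates, of 6 deposited classes. A region was kept if each repeat name listed for it began with ATREP, none was ATREP18, and its midpoint lay more than 3 Mb from the middle of its centromere. No small RNA value entered this choice among the 4481. The study sequenced small RNAs from 3 genotypes, with 1 library each: WT (Col), ddb2-3 carrying the insertion DsLoxHs195_05H, and nrpd1a carrying the insertion Salk_583051. Total RNA came from whole seedlings that were 10 days old in each case and had been grown in vitro in liquid MS medium under long days. The values are levels of 24-nt small RNAs in RPM, the reads of a region scaled to the depth of its library, as the authors deposited them. A region is named hyper or hypo for a gain or loss of methylation in the CG, CHG or CHH context, but which genotypes were compared for this is not given in the sources used here. With 1 library per genotype no difference has a replicate check, and a whole-seedling library cannot tell apart fewer cells making a small RNA from less of it in each cell.

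Helitrons are DNA transposons that copy themselves by a rolling-circle mechanism, and ATREP elements are short Helitrons of Arabidopsis that encode no transposition protein of their own. They are rich in A and T and often sit close to genes. RNA polymerase IV (Pol IV), whose largest subunit is NRPD1, transcribes such elements, and its transcripts are copied and cut into 24-nt siRNAs. These siRNAs guide methylation of matching DNA, most visibly in the CHH context. DDB2 binds ultraviolet lesions in DNA and starts global genome repair. Setting ddb2-3 beside WT addresses whether these siRNAs depend on DDB2, and nrpd1a is the reference for loss of Pol IV.

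Of the 630 regions 475 were 100 bp wide, and widths ran from 51 to 500 bp, so levels of single regions can mostly be compared directly. The regions covered 471 annotated elements of 22 ATREP families, 16 of which had at least 10 regions, and 28 regions overlapped another of the set. Their median GC content was 25%, against 36.4% over all 4481 regions. Sequences are printed here for 3 groups of regions, all chosen after their values were seen, on the plus strand as RefSeq gives them for TAIR10.1, in which 334 of 341 gene overlaps listed in the files were found at the same coordinates. The first group holds the 4 elements with the highest WT level that had no read in ddb2-3. For the ATREP5 element it adds the nearest region of the same element that did not overlap, which had reads in ddb2-3. Capitals mark CG dinucleotides.
ATREP11 chr2:14653601-14653800: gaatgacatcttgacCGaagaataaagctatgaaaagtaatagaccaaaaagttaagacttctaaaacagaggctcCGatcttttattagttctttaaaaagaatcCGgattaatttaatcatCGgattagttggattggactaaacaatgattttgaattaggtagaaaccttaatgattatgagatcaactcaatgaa
ATREP1 chr2:13702401-13702600: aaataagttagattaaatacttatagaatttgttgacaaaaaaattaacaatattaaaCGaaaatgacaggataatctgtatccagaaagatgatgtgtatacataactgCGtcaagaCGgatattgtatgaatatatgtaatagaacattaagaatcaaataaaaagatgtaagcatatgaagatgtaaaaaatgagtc
ATREP4 chr3:8785001-8785300: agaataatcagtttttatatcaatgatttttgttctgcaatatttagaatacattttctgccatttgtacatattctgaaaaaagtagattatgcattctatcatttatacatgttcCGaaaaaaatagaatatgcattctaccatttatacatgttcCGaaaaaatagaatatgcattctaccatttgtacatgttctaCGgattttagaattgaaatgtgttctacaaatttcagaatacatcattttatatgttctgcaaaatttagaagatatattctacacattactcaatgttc
ATREP5 chr1:11407001-11407300: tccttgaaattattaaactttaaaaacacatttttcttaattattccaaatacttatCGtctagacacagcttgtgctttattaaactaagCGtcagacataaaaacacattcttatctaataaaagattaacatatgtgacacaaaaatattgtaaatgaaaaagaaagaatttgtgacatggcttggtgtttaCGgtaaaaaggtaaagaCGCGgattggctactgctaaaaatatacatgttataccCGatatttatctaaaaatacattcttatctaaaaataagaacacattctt
ATREP5 chr1:11408201-11408300: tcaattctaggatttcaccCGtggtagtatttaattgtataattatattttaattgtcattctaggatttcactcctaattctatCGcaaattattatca

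The second group shows regions of the closely related families ATREP10 and ATREP10B, which differ in direction from one copy to the next. The first 3 had the highest WT levels in these families and were lower in ddb2-3. Capitals mark each stretch of 24 bases that occurs in another of the 3, on either strand.
ATREP10 chr5:7833901-7834000: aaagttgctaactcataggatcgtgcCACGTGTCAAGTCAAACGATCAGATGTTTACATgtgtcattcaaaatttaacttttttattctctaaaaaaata
ATREP10B chr3:7922301-7922456: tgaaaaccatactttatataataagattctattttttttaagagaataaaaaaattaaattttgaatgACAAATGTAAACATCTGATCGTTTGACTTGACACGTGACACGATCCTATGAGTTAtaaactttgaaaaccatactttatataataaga
ATREP10B chr3:7921701-7921800: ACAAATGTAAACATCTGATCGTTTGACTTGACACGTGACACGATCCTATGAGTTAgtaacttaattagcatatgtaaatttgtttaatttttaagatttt
The next 3 are the ATREP10B region with the largest difference upward among those of at least 20 RPM in ddb2-3, and the 100-bp regions that share 24-mers with it. Capitals mark 24-mers shared among these 3.
ATREP10B chr5:17275401-17275500: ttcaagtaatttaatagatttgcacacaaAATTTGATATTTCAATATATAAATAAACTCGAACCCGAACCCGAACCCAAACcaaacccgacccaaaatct
ATREP10 chr4:6911801-6911900: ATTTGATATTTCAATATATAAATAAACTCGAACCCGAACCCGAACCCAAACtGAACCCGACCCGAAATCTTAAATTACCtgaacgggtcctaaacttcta
ATREP10 chr1:11351801-11351900: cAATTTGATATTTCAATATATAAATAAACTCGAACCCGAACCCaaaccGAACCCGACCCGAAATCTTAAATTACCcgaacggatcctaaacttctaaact
The third group is a pair of ATREP13 copies on different chromosomes with almost the same level in every library. Capitals mark the 24-mers that they share.
ATREP13 chr1:9862701-9862900: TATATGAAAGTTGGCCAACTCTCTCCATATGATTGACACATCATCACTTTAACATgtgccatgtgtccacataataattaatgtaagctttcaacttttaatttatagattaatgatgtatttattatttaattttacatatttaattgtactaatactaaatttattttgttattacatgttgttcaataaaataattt
ATREP10D+ATREP13 chr2:6629801-6629900: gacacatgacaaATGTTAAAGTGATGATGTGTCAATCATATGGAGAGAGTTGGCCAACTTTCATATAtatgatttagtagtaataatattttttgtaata

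Over the 630 regions the mean level was 31.2 RPM in WT, 29.9 in ddb2-3 and 0.514 in nrpd1a. The medians were 11.5, 10.06 and 0 RPM, and the quartiles of the WT levels were 4.90 and 33.1 RPM. These levels rest on 116390 WT reads, 157245 ddb2-3 reads and 446 nrpd1a reads, where 1 read was worth 0.169, 0.120 and 0.727 RPM. A level of 0 therefore allows up to 0.507 RPM in WT, 0.359 in ddb2-3 and 2.18 in nrpd1a, the worth of 3 reads. Each of the 630 regions reached 1 RPM in at least 1 library, as did 4480 of all 4481 regions. Whether the deposited regions had been filtered by level is not known here. If they had, a region with no read in 1 library was listed only through its level in another.

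The total of ATREP siRNAs on the arms was nearly equal in ddb2-3 and WT, with a log2 ratio of summed levels of -0.063 (95% exact interval -0.074 to -0.052). Intervals cover counting error only, and reads in overlapping regions or with several genomic hits may be counted more than once. The median region stood at -0.022 on the log2(RPM + 1) scale, and 291 of 630 regions were above WT. The median of all regions with reads in both libraries was 0.20 higher in ddb2-3 than in WT on the log2 scale, and relative to it the summed ATREP level was -0.26. The 268 ATREP regions within 3 Mb of a centromere middle had 18.2 RPM in WT and 17.9 in ddb2-3, a log2 ratio of -0.029 (-0.051 to -0.0076). The 1183 other regions of the arms had a log2 ratio of -0.039.

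Single regions were counted as higher or lower when they differed from WT by at least 2-fold on the log2(RPM + 1) scale. In ddb2-3, 5 of the 630 regions were higher (0.794%), where 5.22% of all regions were, and 18 were lower (2.86%), where 1.67% of all regions were. With 1 region kept per cluster of overlapping regions, 5 of 616 were higher and 13 were lower. The shares over all regions were not recounted in this way. Near the centromeres 4 of 268 ATREP regions were higher and 13 were lower (4.87% of those with at least 1 RPM in a library). Among the other arm regions 54 of 1183 were higher and 34 were lower (2.87%), so the share of lower regions was like that of the arm ATREP regions. An exact binomial test on the reads with Benjamini-Hochberg adjustment at 0.05, which compares the 2 libraries and not the genotypes, called 57 regions higher (9.05%), where it called 19.3% of all regions. It called 89 lower (14.1%), where it called 7.03% of all.

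**Figure D1:**
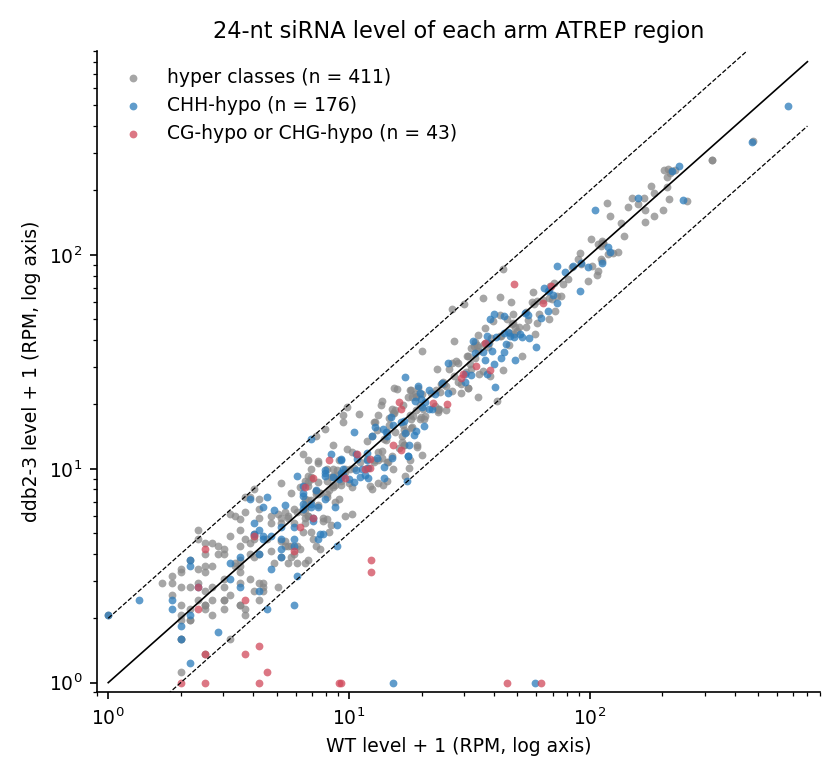
Level of each of the 630 regions in WT (x axis) and ddb2-3 (y axis), in RPM plus 1 on log axes, with hyper classes in grey, CHH-hypo in blue and CG-hypo or CHG-hypo in red. The solid line marks equal levels and the dashed lines a 2-fold difference. Most points lie near the solid line, and the 9 regions with no ddb2-3 read lie on the lower edge, 7 of them red.

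Nearly all regions with lower siRNA levels in ddb2-3 belonged to the hypo classes. Among the 219 regions of a hypo class 1 was higher and 17 were lower (7.76%), and among the 411 regions of hyper classes alone 4 were higher (0.973%) and 1 was lower (0.243%). The same split ran through the whole series, where 62 of the 75 lower regions were of a hypo class. Over all 4481 regions 4.24% of hypo regions and 0.431% of hyper regions were lower, and 4.59% and 5.53% were higher. The 5 CG-hypo regions averaged 3.42 RPM in WT, 0.168 in ddb2-3 and 0 in nrpd1a, a log2 ratio of -4.35 (-5.70 to -3.25) for ddb2-3, and 4 of the 5 were lower. Over the whole series 45.8% of CG-hypo regions were lower, so low levels in this class are not particular to ATREP elements. The 39 CHG-hypo regions had 17.7 RPM in WT and 14.1 in ddb2-3, a log2 ratio of -0.33 (-0.39 to -0.26), and 8 were lower, where 34 of all 708 CHG-hypo regions were. Without the 4 that had no ddb2-3 read, a comparison added after the data were seen, the CHG-hypo ratio was -0.061. The 182 CHH-hypo regions had 32.6 and 29.5 RPM, a log2 ratio of -0.14 (-0.16 to -0.12), and 5 were lower, where 1.75% of all CHH-hypo regions were.

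The 380 CHH-hyper regions, the largest class, had 32.9 RPM in WT and 32.5 in ddb2-3, a log2 ratio of -0.019. Of these 3 were higher and 1 was lower, where 3.59% and 0.512% of all CHH-hyper regions were. The 40 CHG-hyper regions had 24.3 and 25.7 RPM, a log2 ratio of 0.076 (0.028 to 0.12) that becomes -0.12 relative to the median of all regions. Only 3 regions were CG-hyper, at 1.18 RPM in WT and 1.32 in ddb2-3. A region may belong to 2 classes, as 19 did.

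In the ddb2-3 library 9 regions of 6 elements had no read at all. They were 1.45% of the 621 regions that reached 1 RPM in WT, where 0.351% of all such regions had none. The ATREP11 region at chr2:14653601-14653800, whose sequence opens the first group, had 61.7 RPM in WT, 0 in ddb2-3 and 1.45 in nrpd1a. In reads this was 365 in WT against 0, at least 172-fold lower with the floor of 3 reads. The region lies 357 bp upstream of AT2G34730, which encodes a myosin heavy chain-like protein. Its first 100 bp form a CHH-hypo region of their own, with 58.2 RPM in WT and 0 in ddb2-3. The WT library alone was high here, and ddb2-3 was no higher than nrpd1a.

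The ATREP1 region at chr2:13702401-13702600 had 44.1 RPM in WT and 0 RPM in both mutants. Its 261 WT reads put ddb2-3 at least 123-fold lower. It lies 1468 bp upstream of ZIP3, which encodes a zinc transporter, and its first 100 bp had 14.2 RPM in WT and 0 RPM in the mutants. The ATREP4 region at chr3:8785001-8785300 had 8.29 RPM in WT and 0 RPM in both mutants, 23.1-fold lower in ddb2-3 at that floor. An overlapping CG-hypo region of the same element, at chr3:8785101-8785400, had 8.12 RPM in WT and 0 in ddb2-3. Both lie within 2 kb upstream of AT3G24250, which encodes a glycine-rich protein, although the end of AT3G24240 is nearer. At these elements both mutants were at 0 where WT was not.

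The remaining regions without a ddb2-3 read were weaker. The ATREP5 region at chr1:11407001-11407300 had 3.21 RPM in WT, from 19 reads, and 0 RPM in both mutants. Its ddb2-3 level was 8.94-fold lower at the floor of 3 reads. It lies 192 bp upstream of AFH14, which encodes a formin, a protein that organises actin filaments. An ATREP11 region at chr5:4738001-4738100, upstream of AT5G14690, had 1.52 RPM in WT, and an ATREP10D region on chromosome 3 had 1.01 RPM. At these low WT levels a count of 0 in ddb2-3 bounds the difference only loosely.

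**Figure D2:**
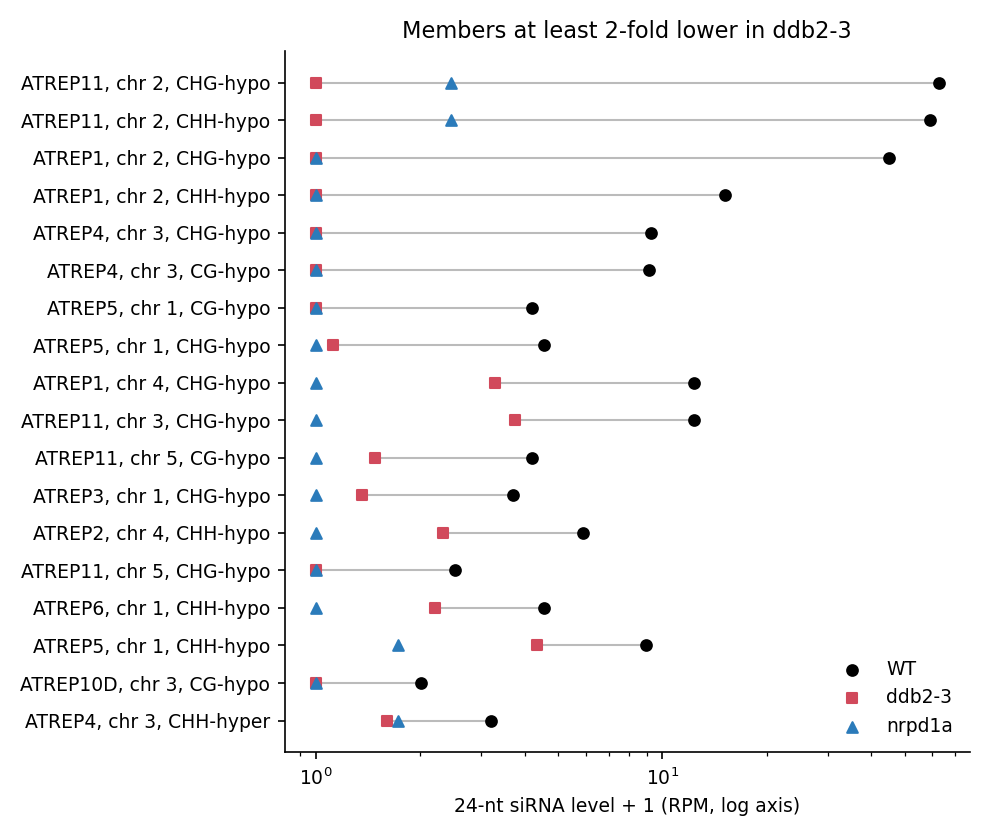
Level in RPM plus 1 on a log axis for the 18 regions at least 2-fold lower in ddb2-3, with WT as black circles, ddb2-3 as red squares and nrpd1a as blue triangles. The ddb2-3 squares of 9 regions sit at 0 RPM, and WT is the highest of the 3 libraries in each of the 18.

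The other lower regions kept some siRNAs. An ATREP1 region at chr4:17511801-17511983 had 11.3 RPM in WT, 2.28 in ddb2-3 and 0 in nrpd1a, a ddb2-3 to WT ratio of 0.201 (0.114 to 0.339). It lies 271 bp upstream of AT4G37210, which encodes a protein with tetratricopeptide repeats. An ATREP11 region at chr3:19623301-19623400 had 11.3, 2.76 and 0 RPM in the same order, a ratio of 0.243 (0.145 to 0.396). In both, ddb2-3 lay below WT. The 0 in nrpd1a allows up to 2.18 RPM, close to the ddb2-3 levels, so these 2 mutants cannot be ranked here. An ATREP5 region at chr1:29983301, 482 bp upstream of the wall-associated kinase-like gene WAKL10, had 7.95 RPM in WT, 3.35 in ddb2-3 and 0.727 in nrpd1a. An ATREP2 region beside the receptor kinase gene AT4G23740 had 4.90 RPM in WT and 1.32 in ddb2-3. An ATREP3 region at chr1:2335201-2335300, 1434 bp upstream of the protein kinase gene APK1A, had 2.71 RPM in WT and 0.359 in ddb2-3, from 16 and 3 reads. The single lower region of a hyper class was an ATREP4 region with 2.20 RPM in WT, 0.599 in ddb2-3 and 0.727 in nrpd1a.

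The 18 lower regions came from 13 elements, and 14 of them had no nrpd1a read. Of the 18, 17 lay within 2 kb upstream of a protein-coding gene, as did 63.2% of all 630 regions and 65.8% of those in hypo classes. They also stood out in sequence, because 14 of the 18 had at least 90% of their 24-mers at a single place in the genome. Only 58 of the 630 regions were that unique, and these had 13.3 RPM in WT and 9.12 in ddb2-3, a log2 ratio of -0.54 (-0.60 to -0.48), with 14 lower (24.1%). All 9 regions without a ddb2-3 read were among these 58, and they weigh on that ratio. Overlapping regions of the ATREP11 element near AT2G34730 had 61.7 and 58.2 RPM in WT. Those of the ATREP1 element near ZIP3 had 44.1 and 14.2 RPM. A ratio over the 58 without the 9 was not computed. Other arm regions as unique also held lower ones, as given below for the CHG-hypo and CG-hypo classes. The 24.1% is therefore not shown to be particular to ATREP elements. The 119 regions with no unique 24-mer had a log2 ratio of -0.030, with 0 lower and 2 higher. The 313 regions with up to 50% unique 24-mers had -0.051 with 2 lower, and the 140 between 50% and 90% had -0.052 with 2 lower. The counting of reads that match several places is not stated in the sources used here, and the part of read mapping in this pattern was not tested.

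Class and uniqueness went together in these counts. Of the 43 regions in the CG-hypo or CHG-hypo class 18 had at least 90% unique 24-mers, and the 12 lower ones were all among these 18. The 14 CHG-hypo regions of that uniqueness had 14.4 RPM in WT and 4.38 in ddb2-3, a log2 ratio of -1.72 (-1.87 to -1.57), with 8 lower. These 14 include the 4 CHG-hypo regions without a ddb2-3 read, and the ratio without those 4 was not computed. The 21 unique CHH-hyper regions had a log2 ratio of -0.097 (-0.20 to 0.0075) with 0 lower, where 1 of all 380 CHH-hyper regions was. With so few lower regions in that class, these counts cannot tell class and uniqueness apart. Among other repeats and genes of the arms, 81 CHG-hypo regions were as unique, and they had 6.94 and 5.73 RPM, a log2 ratio of -0.28 (-0.34 to -0.21), with 17 lower (21.0%). The 12 unique CG-hypo regions among them had 4.92 and 1.19 RPM, with 9 lower. Some unique CHG-hypo ATREP regions stayed near WT, such as an ATREP10D region at chr1:18325101 with 32.6 RPM in WT and 29.2 in ddb2-3. An ATREP10B region upstream of IPT8, which encodes an enzyme of cytokinin synthesis, had 15.4 RPM in WT and 18.1 in ddb2-3.

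Within a single element the difference could be local. The ATREP5 element near AFH14 had 3.21 RPM in WT and 0 in ddb2-3 at its first region and 3.55 and 0.120 RPM over the same stretch extended by 100 bp, from 21 reads and 1 read, a ratio of 0.034 (0.00082 to 0.21). At 1200 bp from the start of the first region, in the fifth sequence of the first group, it had 44.1 RPM in WT and 49.1 in ddb2-3, a ratio of 1.11 (0.951 to 1.31). Its next regions had 9.13 and 2.54 RPM in WT and 8.99 and 2.52 RPM in ddb2-3. Low and WT-like levels thus stood side by side in this element. However, all 77 24-mers of the region at 1200 bp also occurred in an ATREP5 region at chr3:10511201-10511500, with 111 RPM in WT and 113 in ddb2-3. Whether reads of that copy were counted here was not tested. The ATREP11 element on chromosome 3 with the lower region at chr3:19623301-19623400 also held a region of 62.6 RPM in WT and 60.6 in ddb2-3 and one of 3.55 and 6.35 RPM. Its 3 regions were near WT, above it and below it.

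**Figure D3:**
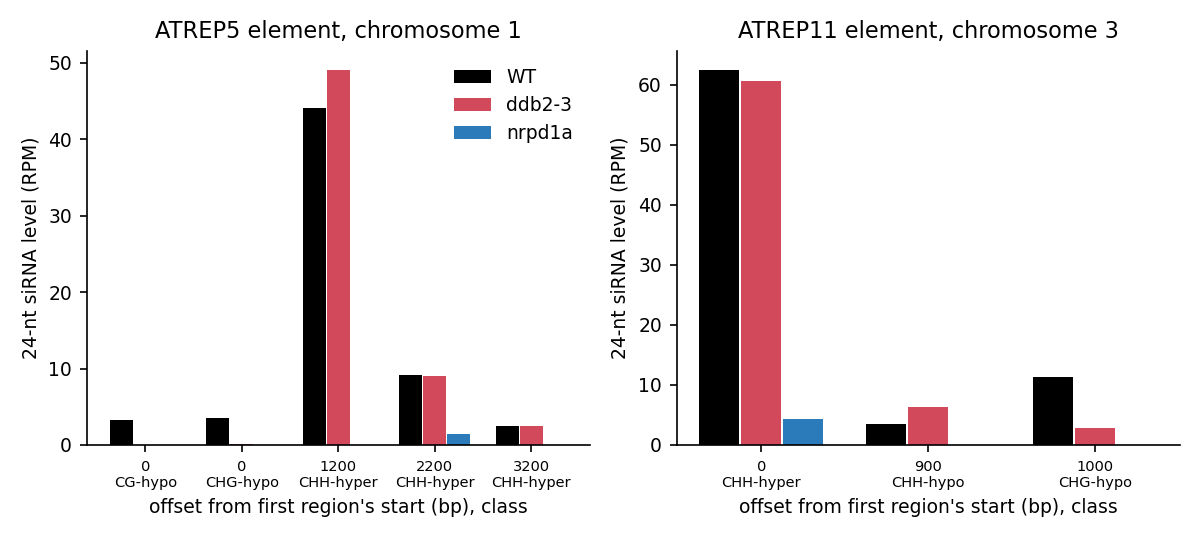
Level in RPM of regions within 2 elements, an ATREP5 element on chromosome 1 and an ATREP11 element on chromosome 3, by distance in bp from the start of the first region of each. Bars stand for the WT, ddb2-3 and nrpd1a libraries. In the ATREP5 element ddb2-3 is at 0 and 0.120 RPM in the first 2 regions and at 49.1 RPM at 1200 bp, where WT has 44.1 RPM.

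Over the 134 elements with at least 2 regions, the highest and lowest log2 difference within an element lay 0.36 apart at the median, and 16 elements spanned at least 1. An ATREP10B element on chromosome 5 held a region of 42.6 RPM in WT and 84.7 in ddb2-3 and another of 10.7 and 8.39 RPM. An ATREP10D element on chromosome 3 held 1 region at 2.87 and 6.23 RPM and another, 200 bp on, at 5.58 and 2.64 RPM. The directions in these elements were opposite, at low read numbers in the second.

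The 5 regions higher in ddb2-3 were mostly weak. The one with the highest level was an ATREP3 region at chr5:5429501-5429600, with 25.7 RPM in WT, 55.0 in ddb2-3 and 0 in nrpd1a, a ratio of 2.14 (1.78 to 2.59). It lies 1984 bp upstream of AT5G16590, which encodes a leucine-rich repeat receptor kinase. The other 4 were weak, at most 4.19 RPM in any library, and 2 of them, in ATREP1 and ATREP15, had 0 RPM in WT and 1.08 in ddb2-3. Several regions just missed 2-fold on the scale with 1 RPM added. An ATREP3 region at chr2:17254601-17254700 had 29.1 RPM in WT and 57.6 in ddb2-3, an ATREP10 region at chr5:24436301-24436500 had 8.79 and 18.5 RPM, and an ATREP5 region at chr1:7282801-7282900 had 5.92 and 12.8 RPM. An ATREP15 region 631 bp upstream of NAC13, which encodes a transcription factor of the stress response, had 6.93 and 14.4 RPM. Each of these had 0 RPM in nrpd1a and an interval of the ddb2-3 to WT ratio that lay above 1.

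The lowest regions of at least 10 RPM that did not pass the size rule were an ATREP8 region 42 bp upstream of PDLP6, a gene for a plasmodesmata protein, with 40.2 RPM in WT and 19.7 in ddb2-3, and an ATREP2 region upstream of GT13 with 16.4 and 7.79 RPM. An ATREP10D region downstream of RGA1, which encodes a DELLA repressor of gibberellin responses, had 16.1 and 8.27 RPM. An ATREP3 region downstream of NUC, a zinc finger gene, had 16.7 and 9.11 RPM. These were well below WT and above the level in nrpd1a, which was 0 RPM in each.

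A small number of regions carried much of the siRNA. In WT 50 regions of at least 100 RPM held 47.1% of the summed level, and the 10 highest held 17.3%. Of these 50 regions 28 were below WT in ddb2-3. The highest was the ATREP10 region at chr5:7833901-7834000, with 663 RPM in WT, 496 in ddb2-3 and 6.54 in nrpd1a, a ddb2-3 to WT ratio of 0.748 (0.716 to 0.781). It lies 1965 bp upstream of TT16, which encodes a MADS-box transcription factor of the seed coat. Both ATREP10B regions of the second group of sequences, near the clock gene TIC on chromosome 3, had 473 and 470 RPM in WT and 341 and 336 RPM in ddb2-3, ratios of 0.721 and 0.715. An ATREP2 region in an untranslated exon of AT5G44050, a gene for an efflux transporter of the MATE family, had 252, 178 and 4.36 RPM in WT, ddb2-3 and nrpd1a. An ATREP1 and ATREP2 region 1445 bp upstream of the nitrate transporter gene NRT2.3 had 233 RPM in WT and 259 in ddb2-3, the opposite direction.

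Regions that shared sequence had more similar differences than others. Of the 630 regions 486 shared at least 1 24-mer with a region that did not overlap them, in 50 groups, the largest with 95 regions. Pairs in which at least 50% of 24-mers were shared differed by a median of 0.18 in their log2 difference over 159 pairs, and all 198121 pairs of regions differed by 0.40. Where both had at least 10 RPM the medians were 0.17 over 111 pairs and 0.33 over 61416 pairs. Pairs of regions in the same element differed by 0.36, over 197 pairs. If reads with several hits were counted at each copy, copies would share reads, and this was not tested.

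The printed sequences give examples, chosen after their values were seen, and other copies differed in direction. The ATREP3 region at chr5:5429501-5429600, with 25.7 RPM in WT and 55.0 in ddb2-3, shared 49 24-mers with chr5:17365501-17365600. That region had 14.2 and 8.99 RPM. The ATREP10 region at chr4:10870801-10871100, lower in ddb2-3, shared 75 with chr5:24436301-24436500, which had 8.79 and 18.5 RPM. The ATREP10 region near TT16 shared 40 24-mers with an ATREP10 region at chr4:10870801-10871100, which had 241 RPM in WT and 179 in ddb2-3, a ratio of 0.741. It shared 10 with each of the chromosome 3 copies, whose ratios are given above, and 31 with a region at chr5:6073201-6073460, which had 52.8 RPM in WT and 52.6 in ddb2-3. The ATREP10B region at chr5:17275401-17275500 had 42.6 RPM in WT, 84.7 in ddb2-3 and 0 in nrpd1a, a ratio of 1.99 (1.72 to 2.30). Its copies at chr4:6911801-6911900 and chr1:11351801-11351900, also printed in that group, had 104 and 14.4 RPM in WT and 161 and 22.9 RPM in ddb2-3, ratios of 1.55 and 1.59. Another copy, at chr3:5379601-5379900 with 52 shared 24-mers, had 117 and 174 RPM, and one at chr2:8854701-8855200 with 36, had 89.96 and 101 RPM. All 5 were above WT, by different amounts.

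The ATREP13 pair of the third group shared 32 24-mers. The copy at chr1:9862701-9862900, in an intron of the purine permease gene PUP1, had 319 RPM in WT, 276 in ddb2-3 and 0 in nrpd1a. The copy at chr2:6629801-6629900, annotated as ATREP10D and ATREP13, had 320, 277 and 0 RPM. Their ddb2-3 to WT ratios were 0.865 and 0.866. A further copy at chr4:9368716-9368800 had 138 and 121 RPM, a ratio of 0.875, and one at chr4:7838401-7838700 had 15.7 and 18.9 RPM, a ratio of 1.20 (0.926 to 1.57). A copy at chr2:8078101-8078200, which shared 17 24-mers with each of the printed pair, had 28.1 and 21.7 RPM, a ratio of 0.773 (0.622 to 0.960). The 3 strong copies thus had like ratios, and the weaker 2 lay on either side of WT, the one above it with an interval that includes 1.

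By family the summed log2 ratios ran from -0.31 in ATREP10B to 0.34 in ATREP11A among the 16 families of at least 10 regions. ATREP10B had 19 regions with a mean of 61.4 RPM in WT and 49.6 in ddb2-3. ATREP10, the most abundant family at 102 RPM per region in WT, had a log2 ratio of -0.11 in sum, but 10 of its 16 regions were above WT and their median difference was 0.16. Its strongest region, the one near TT16, was below WT. In ATREP11A 10 of 11 regions were above WT, and its strongest region was not, at 22.5 RPM in WT and 17.9 in ddb2-3. In ATREP10A 9 of 11 regions were above WT, with a summed log2 ratio of 0.29, and the 20 ATREP15 regions had 0.23. ATREP3, the largest family with 170 regions, lay at -0.056, and ATREP1 and ATREP2, with 65 each, lay at 0.016 and -0.056. ATREP11, with 41 regions and 5 lower ones, had -0.11, which turned to 0.16 without its regions that had no ddb2-3 read. ATREP6, ATREP7, ATREP4 and ATREP2A lay at -0.25, -0.21, -0.17 and -0.15. ATREP5, at 0.038 over 46 regions, turned to -0.16 relative to the median of all regions.

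**Figure D4:**
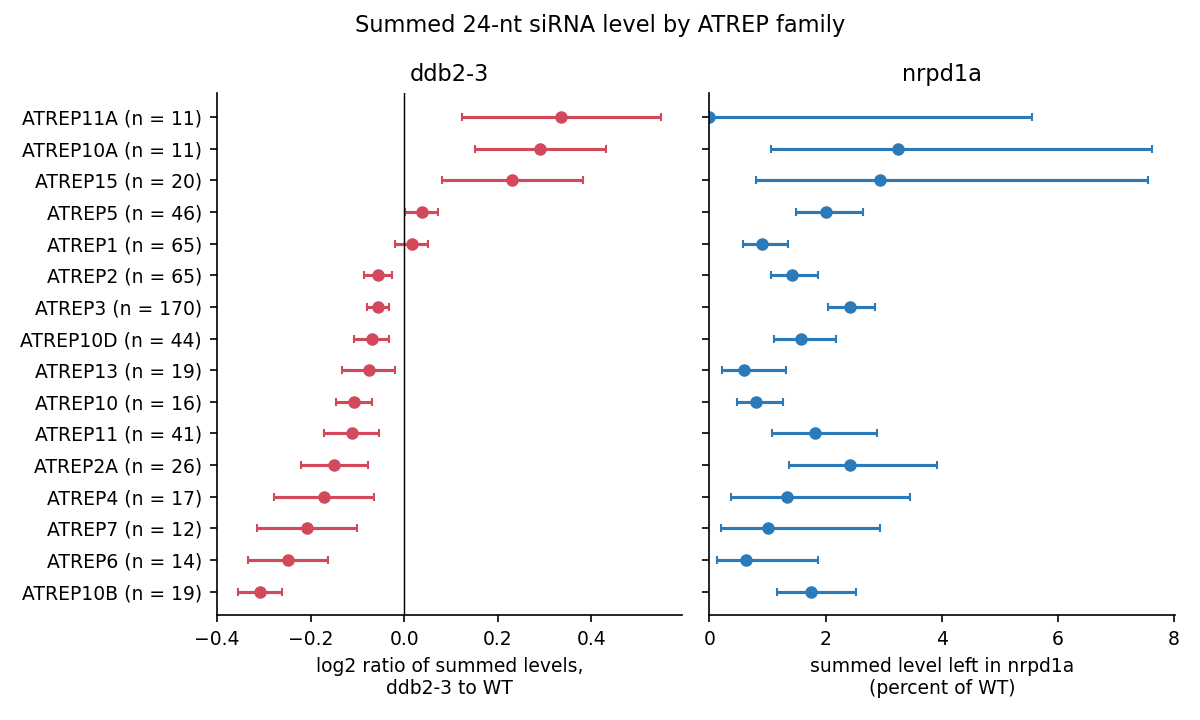
Log2 ratio of summed levels, ddb2-3 to WT, and summed nrpd1a level as a percent of WT, for the 16 ATREP families of at least 10 regions, with exact 95% intervals that cover counting error. ATREP10B is lowest at -0.31 and ATREP11A highest at 0.34 in ddb2-3, while in nrpd1a each family lies between 0 and 3.26% of WT.

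In 10 of these 16 families the region of highest WT level lay within 2 kb upstream of a gene. Of all arm ATREP regions 63.2% lay so, and the count therefore does not set the strongest regions apart. The strongest ATREP3 region, upstream of LCR72, had 157 RPM in WT and 171 in ddb2-3, and that of ATREP11, upstream of EMB3012, had 209 and 250 RPM. The strongest ATREP4 region, 211 bp upstream of the pyruvate kinase gene AT3G52990, had 90.5 and 89.7 RPM, and that of ATREP6 had 168 and 141 RPM. The strongest ATREP15 region, 158 bp downstream of the trichome patterning gene TRY, had 17.9 and 17.7 RPM. The first and second of these were above WT, the ATREP6 region below it, and the others within counting error of it.

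Of the 630 regions 398 lay within 2 kb upstream of a protein-coding gene (63.2%), compared with 38.3% of the other arm regions and 35.4% of ATREP regions nearer the centromeres. A further 112 lay within 2 kb downstream, 17 in introns, 8 in untranslated exons and 1 in a coding exon, that of BARS1, which encodes a triterpene synthase. The BARS1 region had 2.54 RPM in WT and 1.92 in ddb2-3. Upstream regions had a summed log2 ratio of -0.047 with 2 higher and 17 lower, and downstream regions -0.091 with 3 higher and 1 lower. Without regions that had no ddb2-3 read, a comparison added after the data were seen, the upstream ratio was -0.024. The 83 regions within 500 bp upstream of a gene had -0.18 with 6 lower, and those 1000 to 1500 bp upstream had -0.021 with 7 lower. The 83 include both overlapping ATREP11 regions near AT2G34730, at 61.7 and 58.2 RPM in WT and 0 in ddb2-3, which weigh on the -0.18. The 94 regions further from genes had -0.068, with 0 higher and 0 lower. Shares of lower regions by gene context over all regions are not given here, so these counts do not show a link to gene distance. An ATREP19 region in an intron, at chr1:18320701, had 202 RPM in WT, 248 in ddb2-3 and 0 in nrpd1a.

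Listed genes of DNA methylation and repair were looked up for an arm ATREP region. The share of all genes with such a region was not counted, so these counts show neither a lack nor an excess. Of 22 methylation factors 2 had one in the body or within 2 kb upstream, and 0 of 4 demethylases, 0 of 5 repair genes and 0 of 14 genes known to lie near methylated repeats had one. The ATREP15 region 912 bp upstream of NRPD1, at chr1:23363501-23363600, had 5.92 RPM in WT, 6.11 in ddb2-3 and 0 in nrpd1a. The ATREP3 region 514 bp upstream of MET1, the maintenance methyltransferase of CG sites, had 1.86, 0.719 and 0 RPM in the same order. Its ddb2-3 to WT ratio was 0.386 (0.117 to 1.14), an interval that includes 1. Neither gene thus had a region with a clear difference in ddb2-3 at this depth.

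In nrpd1a nearly all of these siRNAs were missing. The summed level was 1.65% (1.50 to 1.81) of WT, against 3.54% over all distinct regions, 1.87% over ATREP regions nearer the centromeres and 2.98% over the other arm regions. No read was found in 412 of 630 regions (65.4%), where 77.1% of all regions had none. Levels under 10% of WT were found in 566 of the 621 regions that reached 1 RPM there (91.1%), where 91.9% of all such regions were. Among the 208 regions strong enough in WT for 3 nrpd1a reads to fall under 10%, 206 did, where 96.6% of all such regions did. The 2 exceptions were both ATREP3 regions. The one at chr5:22231801-22232100, in an untranslated exon of AT5G54720, had 33.3 RPM in WT, 36.2 in ddb2-3 and 5.09 in nrpd1a, which is 15.3% of WT from 7 reads. The one at chr1:11701501-11701600 had 24.4, 23.5 and 2.91 RPM, which is 11.9% of WT from 4 reads. Both were near WT in ddb2-3.

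No region had more than 10 nrpd1a reads, a number reached by the ATREP10B region at chr3:7922301-7922456 with 7.27 RPM. The regions of highest nrpd1a level included those of highest WT level, the ATREP10 region near TT16 and both ATREP10B regions near TIC. They also included regions at 207, 183 and 33.3 RPM in WT. The ATREP13 regions near PUP1 and AT2G15260, at 319 and 320 RPM in WT and 0 RPM in nrpd1a, were at least 146-fold and 147-fold lower with the floor of 3 reads. By family the nrpd1a sum lay between 0 in ATREP11A, which allows up to 5.56% of WT by the interval, and 3.26% in ATREP10A. In nrpd1a 2 regions were above WT, an ATREP10B region with 1.52 RPM in WT and an ATREP15 region with 1.18 RPM, each at 2.18 RPM from 3 reads.

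The 3 Mb limit fell between regions on both sides of WT. The 3 kept ones nearest to it had 8.45, 104 and 2.20 RPM in WT and 8.51, 161 and 0.599 RPM in ddb2-3, and the 3 nearest ones left out had 13.2, 11.5 and 2.54 RPM in WT and 15.6, 17.1 and 1.68 RPM in ddb2-3. Of the sequence features compared, a CG dinucleotide was present in 72.6% of the 100-bp regions, against 81.5% of the 3543 regions of that width in the series.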

How the data were processed

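Small RNA libraries from total RNA of 3 genotypes, 1 each, were used. The submitters' processing notes name CASAVA 1.8.2, Bowtie, bedtools and build TAIR10. Values are RPM per the file headers, summed over each region by the authors. The 24-nt class and the region class are known only from names of the deposited tables. How mismatches and reads that match several places were treated, and which reads make up the RPM denominator, is not given in the sources used here.

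All values of each library were whole multiples of 1 step within 0.1 read, the largest deviation being 0.00418 read, which gives normalising totals of 5913669 reads (WT), 8345931 reads (ddb2-3) and 1376238 reads (nrpd1a). Summed ratios and shares carry exact Clopper-Pearson 95% intervals on these reads. Single regions were compared as log2(RPM + 1) differences where 1 or more libraries reached 1 RPM, with no test of the genotypes. Gene context came from RefSeq TAIR10.1, in which all 4481 regions lay within the chromosome lengths and 334 of 341 region and gene pairs of the files overlapped. Where a region lay upstream of one gene and downstream of another, the upstream gene was named, even if the other was nearer. Unique 24-mers occur once in that genome on either strand.

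Named regions were the 10 lowest and 10 highest differences among regions of at least 10 RPM, the 8 highest in WT, the 6 highest and 6 lowest in nrpd1a, regions at listed genes and the highest of each family. Regions named in addition, such as weaker lower ones and copies of a named region, were chosen after their values were seen. The regions and gene lists were chosen with earlier results of these data known. Python 3.11.15, numpy 2.4.6, pandas 2.3.3, scipy 1.17.1 and matplotlib 3.10.9 were used, and the scripts were tested on simulated reads. The alternatives were another scaling, pseudocount or filter, overlaps collapsed, a 5 Mb limit, unique regions, the strongest regions left out and a count test.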

Additional observations from a re-analysis of the deposited data

How the results depend on the processing

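The summed ddb2-3 to WT log2 ratio of -0.063 stayed below 0 under each alternative tried. It was -0.087 beyond 5 Mb, -0.54 over regions with at least 90% unique 24-mers, -0.032 without the 1% strongest regions, -0.26 relative to the median of all regions and -0.048 without regions that had no ddb2-3 read, a comparison chosen after seeing the data. Under the median scaling CHG-hyper turned to -0.12, and CHG-hypo, CHH-hyper and CHH-hypo were -0.52, -0.22 and -0.34. Without regions that had no ddb2-3 read CG-hypo was -2.50 and CHG-hypo -0.061. Among families ATREP5 turned to -0.16 under the median scaling and ATREP11 to 0.16 without those regions. The 5 higher regions became 3 beyond 5 Mb, 1 among unique regions, 15 with a pseudocount of 0.5 RPM, 1 with a filter of 10 RPM, 0 under the median scaling and 57 by the count test. The 18 lower regions became 13 of 616 with overlaps collapsed, 6 with the 10 RPM filter and 89 by the count test. The summed nrpd1a log2 ratio of -5.92 was -6.24 over unique regions, and the 91.1% of regions under 10% of WT became 94.6% there and 33.2% with nrpd1a set to the floor of 3 reads. No paired analysis was possible because each genotype had 1 library, and none could be left out. Depth limits nrpd1a most, with 446 reads over the 630 regions.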
